A study of Mus musculus with 9 samples.

Results

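The phagocyte NADPH oxidase and its partners in superoxide handling were followed across 3 groups of mouse microglial RNA libraries. The set holds 9 genes, taken by symbol from the 18571 genes of the deposited table. They are the membrane subunits Cybb and Cyba, the cytosolic subunits Ncf1 and Ncf4, the GTPase Rac2, the proton channel Hvcn1, the superoxide dismutases Sod1 and Sod2, and catalase, Cat. All 9 were among the 14696 genes with enough counts to be tested.

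The study asked what microglial connexin 43 (Cx43, gene Gja1) does in an Alzheimer's disease model. Its 3 groups were wild-type mice (WT), mice carrying the APP/PS1 transgenes (APP/PS1), and APP/PS1:Cx3cr1-CreER:Cx43-flox/flox mice, called Cx43 cKO in the figures and cKO for short. All were 9-month-old mice on a C57BL6/j background, with 3 libraries per group, and the labels give tamoxifen by gavage (0.1 mg/g, 5 days, at 8 months) for the samples of all 3 groups. Cells of cortex and hippocampus were caught on plates coated for CD45, a surface protein of all leukocytes, so the panning step itself does not separate microglia from other leukocytes. Cre in the cKO group is driven from Cx3cr1, and the genotype labels of the controls name neither CreER nor the floxed allele. Whether a library is 1 animal or a pool is not given in the sources used here, so p-values measure only the spread between these libraries, which may be technical.

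In phagocytes the oxidase moves electrons from NADPH across a membrane onto oxygen and so makes superoxide. The catalytic chain, Cybb (gp91phox), and its partner Cyba (p22phox) sit in the membrane, and the complex becomes active when the cytosolic subunits and a Rac GTPase join it. Neutrophils are rich in this complex, and microglia and other macrophages carry it too. Dismutases turn superoxide into hydrogen peroxide, and catalase breaks the peroxide down.

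Total estimated counts ran from 18907681 to 19565354 per library. The 9 microglial markers examined (among them Csf1r and P2ry12) summed to between 12351 and 14821 CPM (counts scaled to library size) in every library, so defining markers of the labelled cell type were abundant. The deletion target Gja1, which astrocytes also express, had estimated counts of 682, 642 and 716 for WT, 727, 688 and 788 for APP/PS1, and 514, 484 and 539 for cKO. Against APP/PS1 it fell in cKO (log2 change -0.56, SE 0.06, adjusted p = 7.95e-09, edgeR quasi-likelihood test). Astrocyte markers moved with it: the sum of 8 was 653 to 673 CPM in APP/PS1 and 501 to 512 in cKO, with 7 of 8 lower and 0 higher, among them the astrocyte connexin Gjb6 (log2 change -0.92). Gja1 was also lower in cKO than in WT (log2 change -0.32, adjusted p = 7.62e-05, edgeR). In that comparison 4 of the 8 astrocyte markers were higher and 3 lower, and their sum in WT was 457 to 466 CPM. The part of astrocyte RNA in these differences of Gja1 was not tested. Cx3cr1, whose regulatory sequence drives the Cre, was at 1214 CPM in cKO against 2231 in APP/PS1 (log2 change -0.88). The Y-linked gene Ddx3y had 4137 to 4538 counts in the 6 control libraries and 0, 1 and 2 in cKO, so this sex-linked difference and the cKO genotype cannot be told apart, and Cybb lies on the X chromosome.

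Markers of other leukocytes, and of cells outside that lineage, moved with the groups. The 14 neutrophil markers, none of them at 0 in any group mean, summed to 3875 to 3937 CPM for WT, 1477 to 1547 for APP/PS1 and 10200 to 10324 for cKO. All 14 were lower in APP/PS1 than in WT, all 14 were higher in cKO than in APP/PS1, and against WT the cKO libraries had 11 higher and 2 lower. The 2 lower ones, named after their values were seen, were the azurophil granule genes Mpo and Elane. Ngp, a neutrophil granule gene, averaged 661, 135 and 2318 CPM in WT, APP/PS1 and cKO, whereas Mpo averaged 303, 5.14 and 187 and Elane 91.9, 1.24 and 53.2. The sum of 6 monocyte markers followed the same order (382 to 395, 90.9 to 104 and 697 to 718 CPM), with all 6 lower in APP/PS1 than in WT and 5 of 6 higher in cKO than in WT. Border macrophage markers fell in sum from 375 to 384 CPM for WT to 316 to 323 for APP/PS1 and 232 to 247 for cKO. In APP/PS1 against WT 3 of the 6 were lower and 2 higher, namely Ms4a7 (12.0 to 27.9 CPM) and Pf4 (17.2 to 25.8 CPM). All 6 were lower in cKO than in either other group. The sum of 5 T and NK cell markers was highest in APP/PS1, at 38.3 to 40.4 CPM against 22.5 to 23.9 for WT and 25.9 to 28.6 for cKO. Outside the leukocytes, 8 erythroid markers summed to 1237 to 1293 CPM for WT, 248 to 276 for APP/PS1 and 100.4 to 110.4 for cKO, and all 8 were lower in both groups than in WT. The endothelial sum was 606 to 615, 699.8 to 727 and 472 to 499.7 CPM, with 2 of 6 markers higher and 1 lower in APP/PS1 against WT. For B cells, which are leukocytes, the sum was 44.7 to 48.2, 19.8 to 21.8 and 29.2 to 30.9 CPM. In cKO against WT 5 of the 7 B cell markers were lower and 1 higher. The sum of the microglial markers was 12351 to 12496 CPM for WT, 14620 to 14821 for APP/PS1 and 13764 to 13916 for cKO. Its members did not move together: in APP/PS1 against WT 6 were higher, among them Fcrls (195 to 1583 CPM), and 3 lower, among them Csf1r (6622 to 4735 CPM) and Tmem119 (1100.2 to 885 CPM). In cKO against APP/PS1, 5 of the 9 microglial markers were lower and 2 higher, the latter being Csf1r (4735 to 5540 CPM, log2 change 0.23) and Olfml3 (889 to 966 CPM, 0.12). In such bulk libraries, fewer cells of a type and less RNA per cell cannot be told apart.

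The 9 genes fell into different orders over the 3 groups. Cybb, Ncf1, Ncf4 and Rac2 were lowest in APP/PS1, intermediate in WT and highest in cKO, with no overlap between any 2 groups, an order that 6.61% of all tested genes shared. Cyba, Sod1 and Sod2 were lowest in WT, intermediate in cKO and highest in APP/PS1, as were 7.72% of tested genes. The microglial sum, the T and NK cell sum and the astrocyte sum (457 to 466 CPM for WT) took this order too, and their part in these 3 genes was not tested. The markers in these sums were split in cKO against WT. There 6 microglial markers were higher and 3 lower, 4 T and NK cell markers higher and 1 lower, and 4 astrocyte markers higher and 3 lower. Hvcn1 rose in small steps from WT to APP/PS1 to cKO (3.21% of tested genes), and Cat differed little, with means in the order of the erythroid sum. These orders are those of CPM scaled by TMM, a scaling that assumes most genes do not change.

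**Figure D1:**
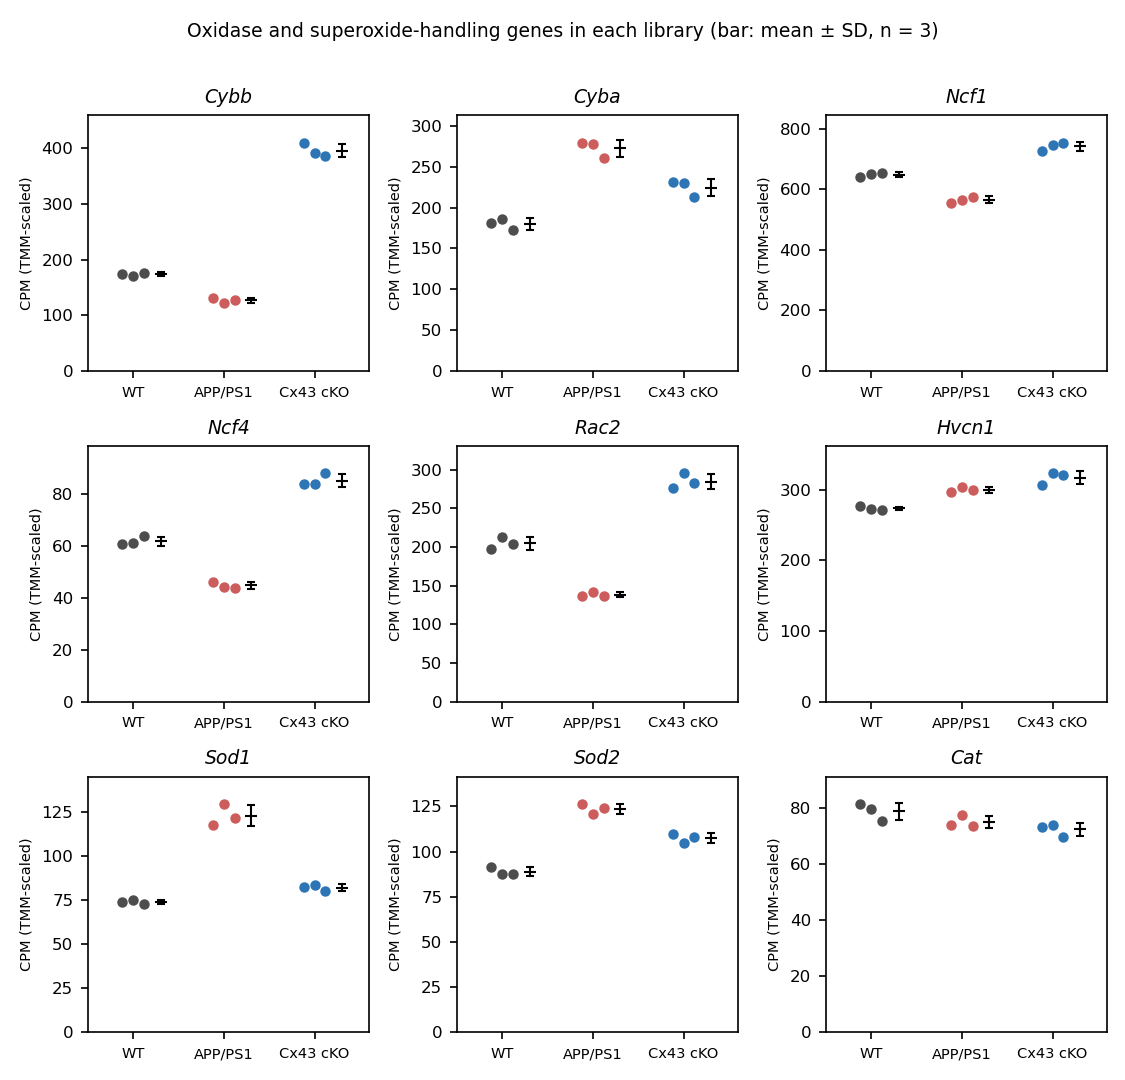
CPM (TMM-scaled, linear axis from 0) of each gene in each of the 9 libraries, grouped as WT, APP/PS1 and cKO; points are libraries and bars are mean ± SD (n = 3). The Cybb libraries of cKO sit between 386 and 409 CPM, above all WT (170 to 177) and APP/PS1 (123 to 130) libraries, while Sod1 is highest in APP/PS1.

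In the comparison of APP/PS1 with WT, which asks what the transgenes change, 8 of the 9 genes passed an adjusted p of 0.05 (4 higher, 4 lower), where 59.0% of all tested genes did (26.9% higher, 32.0% lower). That split was 3 higher and 5 lower with library totals, 2 and 6 on the TPM scale, and 2 and 4 with offsets for GC content and implied transcript length. In cKO against APP/PS1, which asks what the deletion changes in the model and in which CreER and sex-linked expression differ too, 8 of 9 passed (5 higher, 3 lower), against 55.0% of tested genes (27.3% higher, 27.7% lower), and 6 higher and 1 lower on the TPM scale. In cKO against WT, which differ in the transgenes as well as the deletion, all 9 passed (8 higher, 1 lower), against 47.7% (24.7% higher, 23.0% lower), but only 5 did on the TPM scale. The groups did not overlap in 8, 8 and 9 of the 9 genes in these comparisons, where 63.5%, 59.7% and 54.6% of tested genes were without overlap. The median log2 change of the 9 genes was -0.07, 0.08 and 0.27, beside -0.04, -0.01 and -0.01 over all tested genes. The comparisons share libraries pairwise and are not independent of each other.

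With so many genes called, the scaling between libraries moved the direction of small changes. Of the genes called in APP/PS1 against WT, 45.7% were higher with TMM, 29.5% with library totals, 30.2% on log2(FPKM + 1) and 14.7% on log2(TPM + 1). For cKO against APP/PS1 the share was 49.6% with TMM and 75.3% on the TPM scale, and for cKO against WT it was 51.9% with TMM, 30.4% with library totals and 19.8% on the TPM scale. The median of all genes shifted to -0.35, 0.14 and -0.17 on the TPM scale in the 3 comparisons, and to -0.17, 0.02 and -0.12 with library totals. Flips among the 9 genes are named beside each gene or in the closing section.

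Cybb (Gene ID 13058; chrX:9435252-9487766, GRCm38.p6), the catalytic chain of the oxidase, gave the clearest difference of the set. The WT libraries stood at 174, 170 and 177 CPM, the APP/PS1 libraries at 130, 123 and 127, and the cKO libraries at 409, 391 and 386. Every cKO library was thus far above every other library, and every APP/PS1 library was below every WT library. The group means were 174 ± 3.27 (WT), 127 ± 3.87 (APP/PS1) and 396 ± 12.3 CPM (cKO; SD, n = 3). Cybb was 3.12-fold higher in cKO than in APP/PS1 (log2 change 1.64, SE 0.03, adjusted p = 4.36e-24, edgeR) and 2.28-fold higher than in WT (log2 change 1.19, SE 0.03, adjusted p = 4.67e-21). Against WT it fell in APP/PS1 (log2 change -0.45, SE 0.03, adjusted p = 9.17e-12). Its change from APP/PS1 to cKO lay at the 97.3 percentile of all tested genes. These directions were the same under each of the scalings tried.

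Cybb beside neutrophil markers did not keep a single slope. From APP/PS1 to WT, Cybb was higher by 19.6 CPM for each 1000 CPM of the neutrophil marker sum, and from WT to cKO by 35.0. For Rac2 the corresponding values were 27.6 and 12.6, for Ncf1 34.7 and 14.7, and for Ncf4 7.11 and 3.68, so in these 3 genes the step per marker was smaller from WT to cKO, and in Cybb it was larger. These steps were added after seeing the data and use TMM-scaled CPM. On the TPM scale Ncf1 did not rise from WT to cKO (571 and 569 TPM). The steps also depend on the markers summed, which did not move together from WT to cKO. Ngp rose there (661 to 2318 CPM), while Mpo (303 to 187 CPM) and Elane (91.9 to 53.2 CPM) fell. The part of neutrophil and monocyte RNA in the differences of these 4 genes was not tested.

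**Figure D2:**
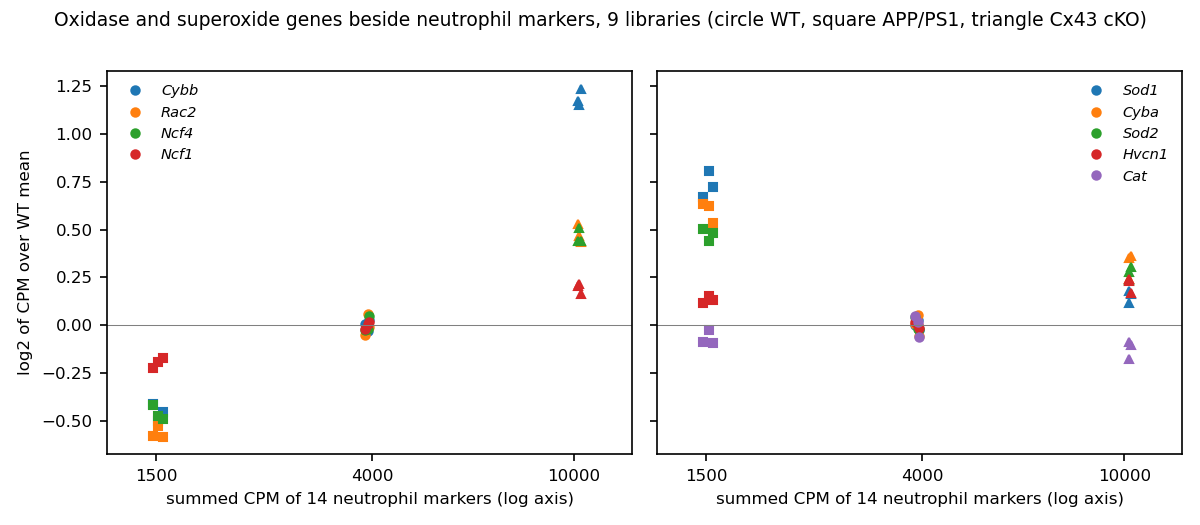
Each library's log2 ratio of CPM to the WT mean (vertical axis) against its summed CPM of 14 neutrophil markers (horizontal, log axis); circles are WT, squares APP/PS1 and triangles cKO, with Cybb, Rac2, Ncf4 and Ncf1 at left and the other 5 genes at right. The 4 genes at left ascend with the marker sum over the 3 separate groups of libraries, while Sod1, Cyba and Sod2 are highest in APP/PS1, where the sum is lowest.

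Cyba (Gene ID 13057; chr8:122424771-122432940), the membrane partner that stabilises Cybb, did not follow it. Its level was 181, 187 and 173 CPM for WT, 279, 277 and 261 for APP/PS1, and 231, 230 and 213 for cKO. All APP/PS1 libraries were above all cKO libraries, which were above all WT libraries. Cyba rose in APP/PS1 against WT by a log2 change of 0.60 (SE 0.04, adjusted p = 2.68e-13, edgeR), fell in cKO against APP/PS1 (-0.28, SE 0.04, adjusted p = 3.98e-07) and rose in cKO against WT (0.32, SE 0.04, adjusted p = 8.55e-08). The first of these calls was lost when GC content and the transcript length implied by the deposited counts and FPKM were offset (log2 change 0.08, adjusted p = 0.140, or 0.00155 when libraries were blocked by number), and the second turned to 0.15 (adjusted p = 0.00787). The second was not called with offsets for GC content and annotated length (0.0055, adjusted p = 0.938, edgeR) or on the TPM scale (-0.09, adjusted p = 0.0912, limma). The cause was not tested.

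The ratio of Cybb to Cyba within a library does not depend on any scaling between libraries, but it does depend on transcript length. From FPKM, a per-length level, it was 0.145, 0.138 and 0.154 for WT, 0.0704, 0.0667 and 0.0732 for APP/PS1, and 0.267, 0.256 and 0.274 for cKO. The 3 groups did not overlap: the ratio was 3.79-fold higher in cKO than in APP/PS1 and 0.481-fold in APP/PS1 relative to WT. Each pairwise comparison gave p = 0.1 in a two-sided exact permutation test, the smallest that 3 against 3 libraries allow, and 0.1 after adjustment over 12 such tests, so none can pass 0.05. With the GC and implied-length offsets the difference in the log2 ratio was -0.57 in APP/PS1 against WT, where FPKM gave -1.05, and 1.55 in cKO against APP/PS1, where FPKM gave 1.92.

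Ncf1 (p47phox; Gene ID 17969; chr5:134220053-134229628), the organiser subunit that carries the cytosolic complex to the membrane, moved in the same directions as Cybb but less. It was at 639, 650 and 655 CPM for WT, 554, 566 and 576 for APP/PS1, and 726, 746 and 753 for cKO, with no overlap. The differences were small. Ncf1 fell in APP/PS1 against WT (log2 change -0.20, SE 0.03, adjusted p = 6.76e-07, edgeR), and rose in cKO against APP/PS1 (0.39, SE 0.03, adjusted p = 2.32e-12) and against WT (0.19, SE 0.03, adjusted p = 1.25e-06). The last of these was -0.0032 and not called on the TPM scale (adjusted p = 0.924, limma).

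Ncf4 (p40phox; Gene ID 17972; chr15:78244164-78262582), which binds a membrane lipid and supports oxidase activity at phagosomes, moved more. Its level was 60.7, 61.0 and 63.9 CPM for WT, 46.2, 44.4 and 43.9 for APP/PS1, and 83.9, 83.8 and 88.0 for cKO. Again all cKO libraries were highest and all APP/PS1 libraries lowest. The log2 change was -0.46 in APP/PS1 against WT (SE 0.04, adjusted p = 9.51e-10, edgeR), 0.93 in cKO against APP/PS1 (SE 0.04, adjusted p = 3.80e-16) and 0.46 in cKO against WT (SE 0.04, adjusted p = 3.63e-10). The FPKM ratio of Ncf1 to Ncf4 was 5.49 ± 0.108 for WT, 6.60 ± 0.301 for APP/PS1 and 4.54 ± 0.0891 for cKO (SD, n = 3), without overlap (exact permutation p = 0.1 for each pair). The log2 difference of this ratio in APP/PS1 against WT was 0.27 from FPKM and 0.48 with the GC and implied-length offsets.

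Rac2 (Gene ID 19354; chr15:78559169-78572783), the Rac GTPase of blood cells that switches the oxidase on, was at 197, 213 and 203 CPM for WT, 137, 142 and 136 for APP/PS1, and 276, 295 and 282 for cKO. It fell in APP/PS1 against WT by a log2 change of -0.56 (SE 0.04, adjusted p = 2.01e-13, edgeR) and was 2.06-fold higher in cKO than in APP/PS1 (log2 change 1.04, SE 0.04, adjusted p = 3.35e-19). Against WT it was 1.39-fold higher in cKO (log2 change 0.48, SE 0.03, adjusted p = 5.07e-12). Ncf4 and Rac2 are both on chromosome 15, and both kept their directions in all 3 comparisons under each scaling tried.

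Hvcn1 (Gene ID 74096; chr5:122206805-122242297), the voltage-gated proton channel that balances the charge the oxidase moves, changed little with TMM scaling. It was at 276, 273 and 271 CPM for WT, 296, 304 and 299.9 for APP/PS1, and 307, 323 and 322 for cKO. The groups did not overlap, but the step of the means from 300.1 to 317 CPM between APP/PS1 and cKO stood beside an SD of 8.89 within cKO. Hvcn1 rose in APP/PS1 against WT (log2 change 0.13, SE 0.03, adjusted p = 0.000384, edgeR), which became -0.0046 with library totals and -0.26 on the TPM scale. The change of 0.08 from APP/PS1 to cKO (SE 0.03, adjusted p = 0.0239) became -0.0045 with GC and length offsets and no longer passed without APP/PS1 replicate 1, APP/PS1 replicate 3, cKO replicate 2 or cKO replicate 3 (adjusted p = 0.0738, 0.0657, 0.105 and 0.0911). The same change was larger with library totals (0.11, adjusted p = 0.00237, edgeR) and on the TPM scale (0.27, adjusted p = 6.65e-06, limma). In cKO against WT it was 0.21 (SE 0.03, adjusted p = 1.06e-06), and 0.01 on the TPM scale (adjusted p = 0.750, limma).

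Sod1 (Gene ID 20655; chr16:90220762-90226333), the copper and zinc superoxide dismutase of the cytosol, was highest in APP/PS1. Its level was 74.1, 75.4 and 72.7 CPM for WT, 118, 130 and 122 for APP/PS1, and 82.8, 83.8 and 80.2 for cKO. It rose in APP/PS1 against WT by a log2 change of 0.73 (SE 0.04, adjusted p = 7.73e-15, edgeR) and fell in cKO against APP/PS1 (-0.58, SE 0.04, adjusted p = 1.15e-12). Its rise in cKO against WT was 0.15 (SE 0.04, adjusted p = 0.00325), and was not called with library totals (0.04, adjusted p = 0.378) or on the TPM scale (-0.05, adjusted p = 0.275, limma). With offsets for GC content and the transcript length implied by the deposited counts and FPKM, the 3 changes were -0.0073, -0.02 and -0.03, and none was called (adjusted p = 0.887, 0.683 and 0.598). With offsets for GC content and the annotated transcript length they were 0.76, -0.59 and 0.17, all called.

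Sod2 (Gene ID 20656; chr17:13007839-13018119), the manganese dismutase of mitochondria, had the same order of groups. It was at 91.6, 87.7 and 87.6 CPM for WT, 126, 121 and 124 for APP/PS1, and 110, 105 and 108 for cKO. The log2 change was 0.48 in APP/PS1 against WT (SE 0.04, adjusted p = 1.11e-11, edgeR), -0.20 in cKO against APP/PS1 (SE 0.04, adjusted p = 2.89e-05) and 0.27 in cKO against WT (SE 0.04, adjusted p = 5.59e-07). With the GC and implied-length offsets the first stayed at 0.43 (adjusted p = 3.05e-13). On the TPM scale none of the 3 was called (0.08, -0.0065 and 0.08, adjusted p = 0.0582, 0.890 and 0.0916, limma).

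Cat (Gene ID 12359; chr2:103453904-103485153), catalase of the peroxisome, was at 81.4, 79.7 and 75.5 CPM for WT, 74.1, 77.4 and 73.8 for APP/PS1, and 73.4, 74.1 and 69.8 for cKO. APP/PS1 overlapped both other groups. The log2 change was -0.07 in APP/PS1 against WT (95% interval -0.16 to 0.01, adjusted p = 0.149, edgeR), passed when libraries were blocked by number (-0.07, adjusted p = 0.0449), and was -0.46 and called on the TPM scale (adjusted p = 9.50e-07, limma). It was also called with library totals (-0.21, adjusted p = 9.04e-05, edgeR) and on log2(FPKM + 1) (-0.20, adjusted p = 0.000974, limma). In cKO against APP/PS1 the log2 change was -0.05 (95% interval -0.14 to 0.03, adjusted p = 0.307, edgeR), turning to 0.14 on the TPM scale. In cKO against WT the change of -0.12 (SE 0.04, adjusted p = 0.0167) no longer passed with DESeq2 size factors (adjusted p = 0.0545), with the DESeq2 Wald test (adjusted p = 0.135), or without WT replicate 1, WT replicate 2 or cKO replicate 3 (adjusted p = 0.0818, 0.0549 and 0.103).

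The ratios among the scavenging enzymes, free of scaling between libraries, also separated the groups. The FPKM ratio of Sod2 to Sod1 was 0.187 ± 0.00559 for WT, 0.157 ± 0.0109 for APP/PS1 and 0.204 ± 0.00789 for cKO (SD, n = 3). The ratio of Cat to Sod1 was 0.2502 ± 0.00728, 0.143 ± 0.00387 and 0.207 ± 0.00198. Neither ratio overlapped between any pair of groups (exact permutation p = 0.1 for each), and both were lowest in APP/PS1, where Sod1 was highest. These ratios are not free of the transcript length described next. With the GC and implied-length offsets the log2 difference of Sod2 to Sod1 turned from -0.26 to 0.44 in APP/PS1 against WT and from 0.38 to -0.14 in cKO against APP/PS1. That of Cat to Sod1 went from -0.80 to -0.04 and from 0.53 to -0.08 in the same comparisons.

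**Figure D3:**
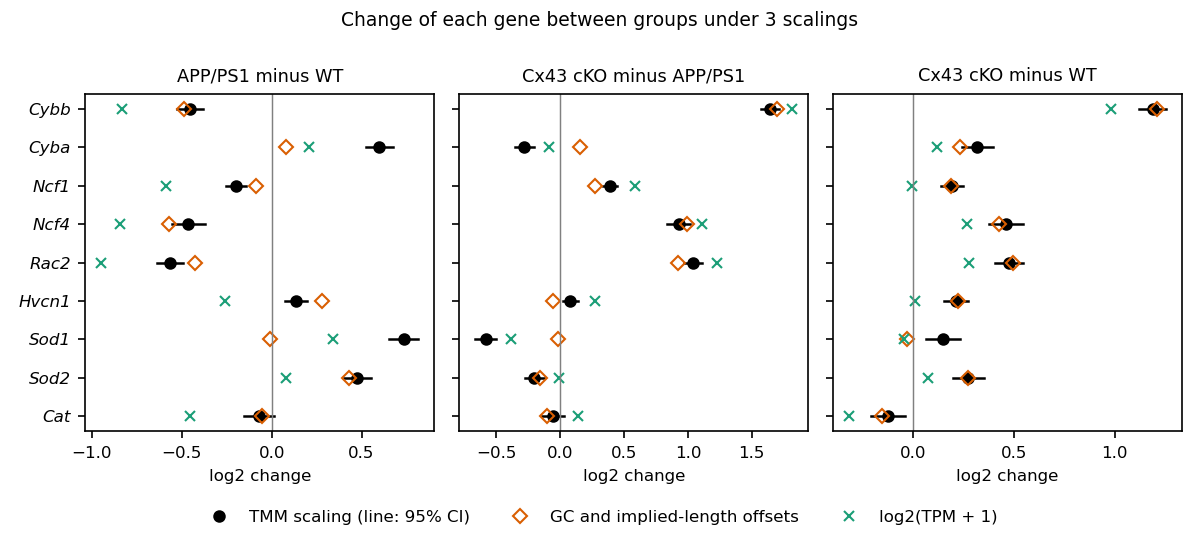
Log2 change of each of the 9 genes in the 3 comparisons with TMM scaling (black, line: 95% interval), with GC and implied-length offsets (orange) and on log2(TPM + 1) (green). Cybb, Ncf4 and Rac2 stay on the same side of 0 in every panel, while Sod1 moves from 0.73 to -0.0073 with the length offsets in APP/PS1 against WT.

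Transcript length moved with the comparisons over the whole table, and the values for the 9 genes stand beside it. Over 11824 tested genes with an implied length, split into 10 bins, the median log2 change of the shortest bin (median length 824 nt) was 0.69 for APP/PS1 against WT, -0.57 for cKO against APP/PS1 and 0.19 for cKO against WT. For the longest bin (7411 nt) it was -0.11, 0.05 and -0.04. Sod1 (588 nt) and Cyba (709 nt) fell in the shortest bin, and their changes of 0.73 and 0.60 in APP/PS1 were near that bin's median. Ncf4 (1399 nt) was in the second shortest bin, whose median in APP/PS1 was 0.23, where Ncf4 was at -0.46. Cybb (4701 nt) was in a long bin with medians of -0.13, 0.06 and -0.04. The part of RNA fragmentation or size selection in the length trend was not tested.

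**Figure D4:**
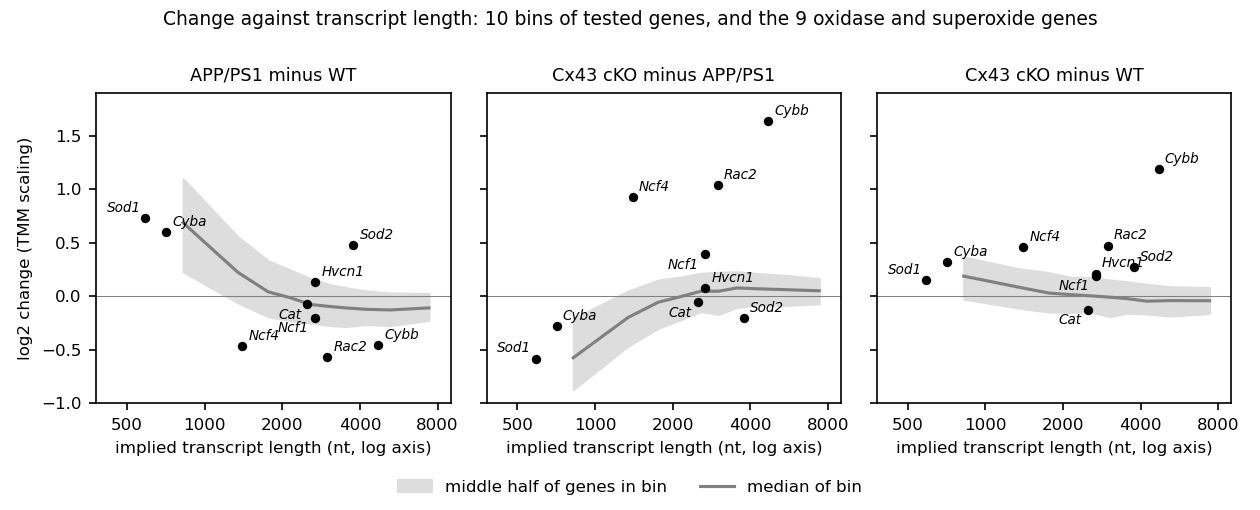
Log2 change with TMM scaling (vertical axis) against the transcript length implied by the deposited values (nt, log axis) for the 3 comparisons; the line is the median and the band the middle 50% of the genes in each of 10 bins, and points are the 9 genes. Sod1 and Cyba lie close to the line where it is high in APP/PS1 against WT, and Cybb, Rac2, Ncf4 and Ncf1 lie above the band in cKO against APP/PS1.

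Levels of different genes were compared per length, as TPM, which scales each library to an equal sum over transcripts. Cyba led the set in every group (598 for WT, 691 for APP/PS1 and 651 for cKO), followed by Ncf1 (571, 379 and 569), Sod1 (297, 376 and 287), Hvcn1 (241, 201 and 243) and Rac2 (161, 83.1 and 196). Cybb changed its place: it was seventh in WT at 87.0 ± 1.72, last in APP/PS1 at 48.4 ± 1.55 and sixth in cKO at 173 ± 5.70 TPM (SD, n = 3). Ncf4 was at 104, 57.5 and 125 TPM, Cat at 74.3, 53.9 and 59.5, and Sod2 at 55.5, 58.8 and 58.6. Neighbours in the order whose libraries overlapped were Cyba and Ncf1 in WT, Ncf1 and Sod1 as well as Sod2 and Ncf4 in APP/PS1, and Cat and Sod2 in cKO.

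Promoter windows from RefSeq (GRCm38.p6, 250 bases before to 50 after the start) were at hand for 6 of the 9 genes, namely Cybb, Cyba, Ncf1, Sod1, Sod2 and Cat. They were searched on both strands for GAGGAA, the core that the myeloid factor PU.1 binds, held by 28.3% of all 32851 windows, and for TGACNNNGC, the antioxidant response element, held by 12.4%. Cybb and Sod1 are shown because each held a match near its start and had, with TMM, the largest single change over the 3 comparisons among the oxidase and the scavenging genes, although Cyba, Rac2 and Ncf4 changed more than Cybb in APP/PS1 against WT, Sod2 more than Sod1 in cKO against WT, and the changes of Sod1 were near 0 with the implied-length offsets. Capitals mark the match to the PU.1 core in Cybb and to the antioxidant response element in Sod1, both on the opposite strand, from positions 10 and -56 relative to the start.
Cybb, chrX:9469295-9469474, minus strand: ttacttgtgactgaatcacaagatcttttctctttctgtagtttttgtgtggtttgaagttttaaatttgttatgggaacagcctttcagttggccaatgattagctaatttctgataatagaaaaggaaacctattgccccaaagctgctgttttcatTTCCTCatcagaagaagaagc
Sod1, chr16:90220612-90220791, plus strand: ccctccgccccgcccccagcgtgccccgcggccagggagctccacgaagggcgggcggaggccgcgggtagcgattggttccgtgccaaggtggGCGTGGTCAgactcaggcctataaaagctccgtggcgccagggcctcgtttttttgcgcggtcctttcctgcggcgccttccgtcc
Each run covers 150 bases before to 30 after the listed start, which for Cybb lies inside the annotated span of the gene. Sod2 and Cat held a PU.1 core on the gene's own strand at -203 and -235, and neither motif was found in the windows of Cyba and Ncf1. The 2 motifs did not occur together in any of these windows. A match of letters is a description of the sequence and not a bound site.

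The genes closest in pattern to each of the 9 were sought among 9158 genes with a mean of at least 10 CPM, by Euclidean distance of centred log2 CPM over the 9 libraries. For Cybb they were Rsad2 (0.217), Irak3 (0.226) and Rab11fip1 (0.371). Rsad2, an interferon-induced antiviral gene, averaged 25.4, 18.6 and 62.3 CPM in WT, APP/PS1 and cKO, and Irak3, a brake on Toll-like receptor signalling, 13.8, 10.3 and 29.8. For Rac2 they were Helz2 (0.105), Incenp (0.126) and Slc27a4 (0.127), and for Ncf4 Slc27a4 (0.191), Acvr1b (0.194) and Dmxl2 (0.194). For Ncf1 the closest was Nup205 (0.0620), for Cyba the immunoproteasome subunit Psmb8 (0.137), and for Hvcn1 Pnpla7 (0.0601). Sod1 was closest to Btf3 (0.124), Adh5 (0.141) and the ribosomal protein gene Rplp2 (0.142), Sod2 to Gmfb (0.0714), and Cat to Armc8 (0.0452).

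Of 9 other genes for assembly and regulation of the oxidase, 2 rose and 4 fell in APP/PS1 against WT, 3 rose and 2 fell in cKO against APP/PS1, and 4 rose and 1 fell in cKO against WT, where 59.0%, 55.0% and 47.7% of all tested genes were called. With library totals the first count was 2 higher and 7 lower and the last 1 higher and 4 lower, and on the TPM scale the 3 counts were 1 higher and 8 lower, 7 higher and 1 lower, and 1 higher and 6 lower. With the GC and implied-length offsets they were 4 higher and 2 lower, 2 higher and 3 lower, and 4 higher and 2 lower. The list's median log2 changes were -0.03, 0.04 and 0.06, and -0.42, 0.24 and -0.14 on the TPM scale. Arhgdib, which holds Rac proteins in the cytosol, averaged 211, 196 and 328 CPM and rose by 0.75 in cKO against APP/PS1. Rac1, the widely expressed relative of Rac2, took the other order (455, 547 and 504 CPM), with changes of 0.26, -0.12 and 0.15 that were -0.13, 0.08 and -0.05 on the TPM scale. Rap1a, a small GTPase found with the membrane subunits, rose in APP/PS1 by 0.62 and fell in cKO against APP/PS1 by 0.56 on the log2 scale. Vav1, an exchange factor that activates Rac proteins, averaged 327, 278 and 321 CPM and fell in APP/PS1 against WT by 0.23 on the log2 scale and rose by 0.20 in cKO against APP/PS1. Both calls were lost with implied length offsets (-0.02 and 0.05, adjusted p = 0.459 and 0.0886, edgeR). Pak2, a kinase that binds active Rac, averaged 224, 197 and 237 CPM, with changes of -0.18, 0.26 and 0.08, the last of which was -0.02 with library totals and -0.11 on the TPM scale. Prkcd, a protein kinase C, was at 429, 401 and 396 CPM and fell against WT in APP/PS1 (-0.10, or 0.01 with implied length offsets) and in cKO (-0.12). Cybc1, a chaperone of Cybb, was at 58.0, 59.3 and 63.1 CPM and passed in cKO against WT alone (0.12, adjusted p = 0.0189). That call was lost on the TPM scale (-0.07, adjusted p = 0.107), with library totals (0.01, adjusted p = 0.807), and without WT replicate 1, WT replicate 3 or cKO replicate 3 (adjusted p = 0.0797, 0.0577 and 0.0662).

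Other NADPH oxidases had low counts: of 8 genes of that list in the table, only Nox4, Noxo1 and Duoxa1 passed the filter on low counts. Nox4 averaged 0.940, 0.776 and 0.296 CPM, and Noxo1, an organiser used by other oxidases, 6.78, 5.01 and 4.71. Noxo1 fell in APP/PS1 against WT (log2 change -0.44, adjusted p = 0.00427, edgeR), Nox4 fell in cKO against APP/PS1 (-1.36, adjusted p = 0.00962, and -0.97 with adjusted p = 0.0665 without cKO replicate 1), and both fell in cKO against WT. On the TPM scale none of the 3 tested genes, Nox4 included, was called in cKO against APP/PS1.

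Of 26 further genes that handle superoxide and peroxide, 13 rose and 8 fell in APP/PS1 against WT, 8 rose and 10 fell in cKO against APP/PS1, and 10 rose and 5 fell in cKO against WT, beside 59.0%, 55.0% and 47.7% of all tested genes called. With library totals the first and last counts were 10 higher and 12 lower, and 6 higher and 8 lower. On the TPM scale the balance turned in all 3 comparisons, to 8 higher and 15 lower, 12 higher and 9 lower, and 4 higher and 13 lower. With the GC and implied-length offsets the counts were 10 and 8, 8 and 12, and 9 and 7. Prdx4, the peroxiredoxin of the endoplasmic reticulum, had the largest rise in APP/PS1 of this list: 13.9 ± 1.29 CPM for WT, 68.0 ± 2.33 for APP/PS1 and 41.2 ± 0.527 for cKO, with log2 changes of 2.29, -0.72 and 1.56 (adjusted p = 5.01e-22, 1.01e-12 and 1.38e-17, edgeR). Prdx1, a cytosolic peroxiredoxin, averaged 115, 327 and 145 CPM. Gsr, which uses NADPH to regenerate glutathione, went the opposite way, at 71.1 ± 2.62, 25.1 ± 1.58 and 88.2 ± 1.68 CPM, with log2 changes of -1.50 in APP/PS1 against WT and 1.81 in cKO against APP/PS1 (adjusted p = 2.76e-19 and 3.21e-21). Sod3, the secreted dismutase, fell in both steps, from 10.5 to 6.82 to 4.98 CPM. Hmox1, a target of the antioxidant response, fell by 0.26 in APP/PS1 and was 0.33 higher in cKO than in APP/PS1 on the log2 scale. Prdx5, another peroxiredoxin, rose in both steps (119, 159 and 206 CPM; the first was 0.02 and not called on the TPM scale, adjusted p = 0.608, limma), as did thioredoxin, Txn1 (34.9, 52.7 and 58.8 CPM), whose change of 0.59 in APP/PS1 against WT turned to -0.15 with the GC and implied-length offsets. Glrx, a glutaredoxin, was at 42.1, 38.7 and 63.0 CPM and rose by 0.70 in cKO against APP/PS1. Srxn1, which repairs oxidised peroxiredoxins, fell against WT in cKO by 0.41 on the log2 scale. Gpx7, at 1.17, 1.91 and 0.926 CPM, fell in cKO against APP/PS1 (-1.04, adjusted p = 0.00120, edgeR). Gpx8 rose by 0.99 in APP/PS1, a call lost with the GC and implied-length offsets (0.19, adjusted p = 0.290).

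Of 10 genes that supply NADPH, the electron donor of the oxidase, 3 rose and 6 fell in APP/PS1 against WT, 6 rose and 2 fell in cKO against APP/PS1, and 7 rose and 2 fell in cKO against WT (59.0%, 55.0% and 47.7% of all tested genes were called). On the TPM scale the counts were 1 higher and 7 lower, 7 higher and 1 lower, and 5 higher and 2 lower, and with the offsets the first was 2 higher and 8 lower. The list's median log2 changes were -0.25, 0.44 and 0.27, and -0.63, 0.62 and 0.07 on the TPM scale. G6pdx, which opens the pentose phosphate pathway and lies, like Cybb, on the X chromosome, was at 87.9 ± 5.79 CPM for WT, 59.7 ± 3.72 for APP/PS1 and 156 ± 8.94 for cKO. Its log2 changes were -0.56, 1.38 and 0.83 (adjusted p = 2.27e-07, 5.52e-13 and 5.46e-10, edgeR). Tkt and Pgd of the same pathway took the same order of groups, with changes of 1.00 and 0.73 in cKO against APP/PS1. The other members of that pathway in the list did not share this order. Pgls was at 29.0, 35.5 and 33.4 CPM and rose in APP/PS1 against WT by 0.29, which turned to -0.27 with the GC and implied-length offsets. Taldo1 was at 126, 131 and 160 CPM, with changes of 0.06 (adjusted p = 0.174, edgeR), 0.29 and 0.35. Nadk, which makes NADP, changed by -0.53, 0.72 and 0.19, the last being -0.0082 on the TPM scale. Idh1, cytosolic isocitrate dehydrogenase, took the order of the dismutases (0.78, -0.39 and 0.39). Me1, malic enzyme, was at 4.75, 6.78 and 4.92 CPM, with changes of 0.52 and -0.46 in APP/PS1 against WT and cKO against APP/PS1, neither called on the TPM scale (adjusted p = 0.393 and 0.136, limma). Idh2, the mitochondrial isocitrate dehydrogenase, fell against WT in APP/PS1 (-0.25) and in cKO (-0.17). Nnt, the mitochondrial transhydrogenase that is known to be deleted in part in C57BL/6J mice, was detected in all groups at 66.4, 29.9 and 45.3 CPM. The neutrophil marker sums given above moved in the order of Gsr, G6pdx, Tkt and Pgd, and their part in these changes was not tested.

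**Figure D5:**
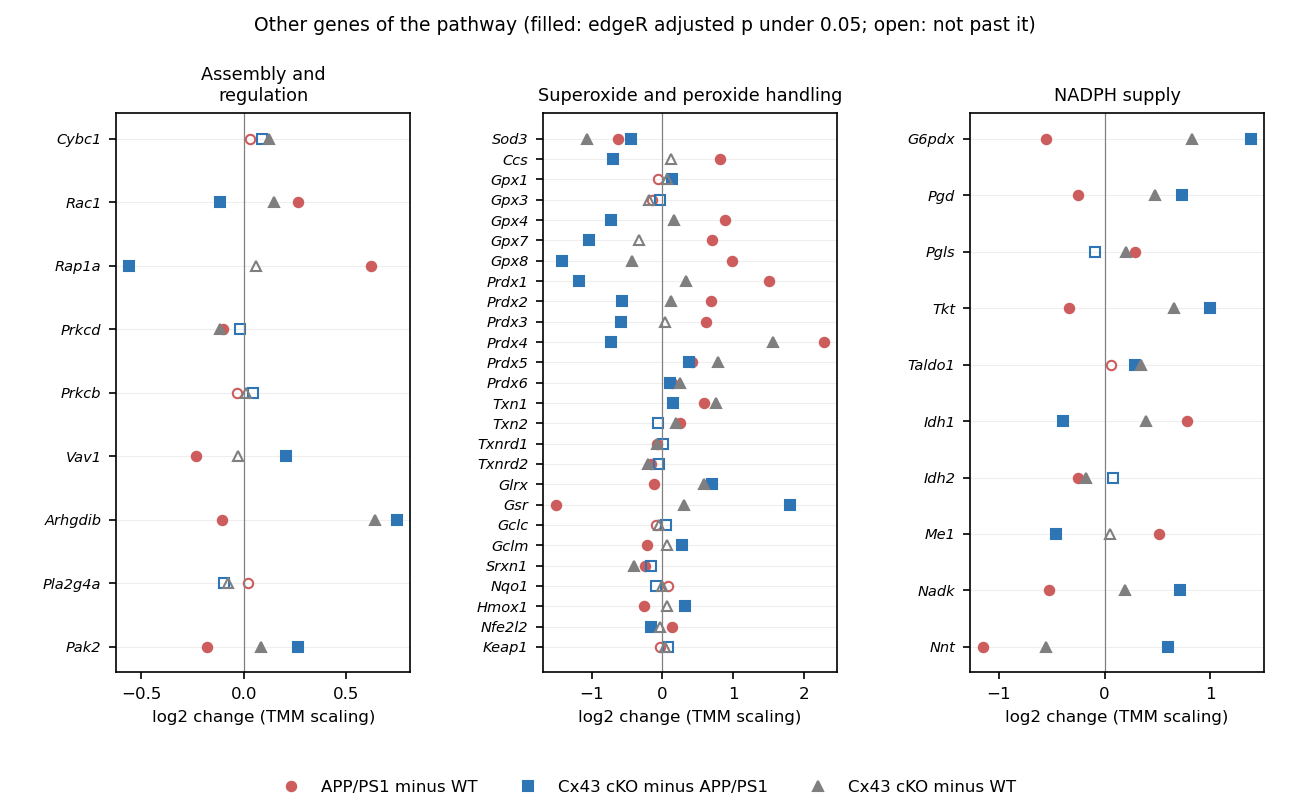
Log2 change (TMM scaling) of 9 assembly and regulation genes, 26 superoxide and peroxide genes and 10 NADPH supply genes in the 3 comparisons (red circles APP/PS1 minus WT, blue squares cKO minus APP/PS1, grey triangles cKO minus WT); filled symbols passed an edgeR adjusted p of 0.05. Prdx4 and Gsr take opposite ends in APP/PS1 against WT (2.29 and -1.50), and G6pdx, Tkt and Pgd lie to the right in cKO against APP/PS1.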

How the data were processed

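Per the labels' protocols, poly-A libraries were read on a DNBSEQ machine from 1 end for 50 bases. The submitters' processing notes name HISAT, Bowtie2, DESeq2 and GRCm38.p6 without their roles, and the counting program and its use of strand are not given in the sources used here, so reads of antisense neighbours or close paralogs such as Rac1 and Rac2 may not be fully separated. Per the file headers, the deposited table holds 4 values per gene in each library: TPM, FPKM, estimated count and normalised count. The estimated counts were deposited with decimals and rounded here to whole numbers. The deposited normalised counts, a signal scaled between libraries, were not used, nor were 12 columns of group means.

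Genes were tested by quasi-likelihood in edgeR (version 4.0.16 under R 4.3.3), after TMM and filterByExpr, with 1 mean per group over all 9 libraries. P-values were adjusted by Benjamini-Hochberg over all 14696 genes kept, with a threshold of 0.05. The 9 genes and the gene lists were chosen with earlier results of these data known. The text names all 9 genes, the 3 largest and 3 smallest called changes of a list in a comparison (all where 5 or fewer were called), and for each of the 9 up to 3 genes of nearest pattern. Limma 3.58.1 tested log2 of FPKM or TPM plus 1 (FPKM also plus 0.1), and DESeq2 1.42.0 was an alternative, as were other scalings, no filter, each library left out, a replicate term, and offsets for GC content and length. Lengths came from GENCODE M21 or, added after seeing the data because the longest Sod1 transcript listed there is 3970 nt against an implied 588 nt, from the deposited counts and FPKM. Marker lists are given as sums and counts. Deviations of same-numbered WT and APP/PS1 libraries correlated at 0.264, 0.233 and 0.138, so blocked values stand beside the calls of that comparison that they change. Correlations with cKO were also positive, at 0.260, 0.166 and 0.0930 for WT and 0.213, 0.214 and 0.0618 for APP/PS1. Because of the lowest value, the comparisons with cKO were not taken as paired, a choice that the other values do not force. Blocked values for them are in the closing section. An item of the assembly list and another of the microglial markers are not reported here and were left out of counts and sums. Scripts were tested on simulated data. Within groups, libraries differed beyond counting noise (chi-square per gene 1.80 to 3.54). Gene positions are those of RefSeq for GRCm38.p6.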

Additional observations from a re-analysis of the deposited data

How the results depend on the processing

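The count of calls among the 9 genes was within 1.5 times of the main count under each alternative except that 5 instead of 9 were called in cKO against WT on log2(TPM + 1). The genes behind a count could differ: with implied-length offsets 7 were called in cKO against APP/PS1, but only 5 of the 8 called before in the same direction, with Cyba turned, Hvcn1 and Sod1 lost and Cat gained. Leaving out each library in turn gave 8 calls in APP/PS1 against WT, 7 to 8 in cKO against APP/PS1 and 8 to 9 in cKO against WT. On the log2 scale Hvcn1 in APP/PS1 against WT was -0.0046 with library totals, -0.0053 on FPKM with either pseudocount and -0.26 on TPM, and in cKO against APP/PS1 it was -0.0045 with GC and length offsets and -0.056 with implied lengths. Sod1 with implied lengths was -0.0073 in APP/PS1 against WT and -0.027 in cKO against WT, where it was -0.046 on TPM. Cyba in cKO against APP/PS1 was 0.0055 with GC and length offsets and 0.15 with implied lengths. On TPM, Cat was 0.14 in cKO against APP/PS1, and in cKO against WT Ncf1 was -0.0032, Cybc1 -0.071 and Nadk -0.0082. Rac1 on TPM was -0.13, 0.079 and -0.050 in the 3 comparisons, in the order of the report. In APP/PS1 against WT, Gja1 was -0.14 on TPM, Prkcd 0.011 with implied lengths, and Pgls -0.27 with implied lengths and -0.10 on TPM. In the same comparison Cx3cr1 was 0.0017 with DESeq2 size factors and the DESeq2 Wald test, 0.017 with only the groups compared, 0.072 with GC and length offsets and 0.10 with implied lengths. Pak2 in cKO against WT was -0.024 with library totals and on FPKM, and -0.11 on TPM. On the log2 scale with implied-length offsets, the ratio differences in the 3 comparisons were -0.57, 1.55 and 0.98 for Cybb to Cyba, 0.48, -0.72 and -0.24 for Ncf1 to Ncf4, 0.44, -0.14 and 0.30 for Sod2 to Sod1, and -0.044, -0.083 and -0.13 for Cat to Sod1, an alternative without a test that was added after seeing the data. Of the other values of single genes under an alternative, 1839 kept their direction and side of the threshold, 66 kept the direction and lost the call, and 12 kept it and gained one. The cause of these turns was not tested.

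The replicate numbers are shared by the groups, and the labels do not say what they stand for. Deviations of same-numbered libraries correlated at 0.0618 to 0.264 (mean 0.183, 9 pairs, 10813 genes), those of other pairs at -0.0909 on average, and 17 of 18 combinations of a library and another group were highest for its own number, a hint from the data and not the design. Each gene was centred on its group mean, which largely fixes the mean of the other pairs once that of same-numbered pairs is given. The 18 combinations view the same pairs from both sides, so neither value adds separate support. With the number as a replicate block, 9319, 8851 and 7934 genes were called against 8670, 8085 and 7010 without it, and Cat in APP/PS1 against WT (-0.07, adjusted p = 0.0449, edgeR), Cybc1 in cKO against APP/PS1 (0.09, adjusted p = 0.0243), and Rap1a and Hmox1 in cKO against WT (0.06 and 0.07, adjusted p = 0.0310 and 0.0258) also passed. With the block, the reversed offset values were -0.0075 and -0.027 for Sod1, 0.0056 and 0.15 for Cyba, -0.0043 and -0.056 for Hvcn1, 0.072 and 0.10 for Cx3cr1, 0.011 for Prkcd and -0.27 for Pgls. In that fit with implied lengths Hvcn1 in cKO against APP/PS1 passed in the direction opposite to its call (adjusted p = 0.0169), Cyba in APP/PS1 against WT kept its call (0.079, adjusted p = 0.00155), and Vav1 kept its call in cKO against APP/PS1 (0.05, adjusted p = 0.0249). For the ratios of paired libraries the smallest possible exact p is 0.25. With 3 libraries per group an exact test cannot pass 0.05, and in the comparisons with cKO the sex-linked difference and the genotype cannot be told apart.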
